A study of Mus musculus and Rattus norvegicus with 6 samples.

Results

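The miRNA hairpins miR-185, miR-186, miR-190a and miR-190b were examined for the balance between their arms in the retina of rat and mouse. Every name with the number of miR-185, miR-186 or miR-190 was taken, whatever its letter or arm. This gave 8 of the 764 mature names in the rat table and 8 of the 1915 in the mouse table, from 4 of the 232 hairpins that have both arms named in both tables. In the mouse table they read mmu-miR-185-5p, mmu-miR-185-3p, mmu-miR-186-5p, mmu-miR-186-3p, mmu-miR-190a-5p, mmu-miR-190a-3p, mmu-miR-190b-5p and mmu-miR-190b-3p, and the rat table has the same names with the prefix rno. The hairpins were chosen because their less abundant arm was near 0 in rat, so the difference between the species in these names is given as a description, with no test. The choice held for miR-185, miR-186 and miR-190b, but the values of miR-190a went against it, with a passenger share of 2.46% in rat and 1.93% in mouse.

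Small RNA was sequenced from the retina, the neural tissue at the back of the eye that detects light. The rat group was 3 libraries from Sprague Dawley animals, the mouse group was 3 libraries from C57BL/6 animals, and both were wild type and 9 weeks old. The labels speak of biological triplicates without saying that each library came from its own animal, so the spread between libraries may be technical in part. Strain, library handling and the separate counting of each table cannot be told apart from the species.

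A miRNA hairpin is cut by Drosha and Dicer into a short duplex with a 5p strand and a 3p strand. As a rule 1 strand, the guide, is kept by an Argonaute protein and pairs with messenger RNAs through its seed, bases 2 to 8. The opposite strand, the passenger, is mostly released and degraded, and sequencing catches it at a low level. The share of a hairpin's reads that come from the passenger is therefore taken within a library, without any scaling between libraries. It can reflect strand choice and decay, but also how well each arm enters a library and how reads were assigned to names. Here the guide is the arm with more counts summed over the 6 libraries, which was the 5p arm in all 4 hairpins.

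The mature sequences are shown because a count under a name stands for reads of these letters. They are the mouse entries of RefSeq on GRCm38.p6, which held 7 of the 8 names; miR-185-5p is named only. They are written 5′ to 3′ with the seed in capitals. The sequences behind the rat names were not used here, so whether the same name means the same letters in both species was not tested.
miR-185-3p (passenger): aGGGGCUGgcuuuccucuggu
miR-190b-5p (guide): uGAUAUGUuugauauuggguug
miR-190b-3p (passenger): aCUGAAUGucaagcauacucuca
miR-186-5p (guide): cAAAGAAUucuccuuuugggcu
miR-186-3p (passenger): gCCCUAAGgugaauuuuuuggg
miR-190a-5p (guide): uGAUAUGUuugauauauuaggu
miR-190a-3p (passenger): aCUAUAUAucaagcauauuccu

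The guides miR-190a-5p and miR-190b-5p share the seed GAUAUGU, and no other name among the 1679 mature sequences of this reference has it. They are identical up to base 15 and differ at 7 of 22 positions after it. Counted from 1 at the 5′ end, with the miR-190b base first, the differences are U16A, G17U, G18U, G19A, U20G, U21G and G22U. A read cut short before these bases would fit either name, and how such reads were counted is not given in the sources used here. The passengers miR-190b-3p and miR-190a-3p differ within the seed as well as outside it (G4A, A5U, G8A, C18U, U21C and C22U, 16 of 22 positions identical). No other name in this reference shares the seed of miR-186-5p. The passenger with the highest GC content was miR-185-3p, at 61.9%, followed by miR-186-3p at 45.5%, miR-190b-3p at 39.1% and miR-190a-3p at 27.3%, all in the mouse sequence.

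The hairpins of the miR-190 pair show where these arms lie, with the annotated mature arms in capitals and the rest in lower case.
Mir190b, chr3:90070020-90070099, + strand, GRCm38.p6: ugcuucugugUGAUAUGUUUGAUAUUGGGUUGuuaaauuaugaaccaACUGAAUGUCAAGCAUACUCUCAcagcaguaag
Mir190a, chr9:67236660-67236726, - strand, GRCm38.p6: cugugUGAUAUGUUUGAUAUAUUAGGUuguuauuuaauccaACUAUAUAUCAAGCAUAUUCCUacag

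In the mouse GENCODE annotation of this build, 3 of the 4 hairpins lie within introns, on the strand of a protein-coding host gene and overlapping no annotated exon of another gene. Mir190a lies in Tln2, which encodes talin 2, a protein that links integrins to actin. Mir186 (chr3:157544279-157544349, + strand) lies in Zranb2, which encodes a zinc-finger RNA-binding protein of the splicing machinery. Mir185 (chr16:18327401-18327465, - strand) lies in Tango2. The protein-coding gene on the lower-coordinate side of Tango2 is Dgcr8, at 38155 bases from the hairpin, which encodes the RNA-binding partner of Drosha. Mir190b lies between genes, 1673 bases from 4933434E20Rik and 2550 bases from Tpm3, a tropomyosin gene.

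Libraries held 24169628 to 28198305 counts in rat and 27843590 to 30514632 counts in mouse. Marker miRNAs of retina and photoreceptors (5 of 7 listed names in each table, none at 0) made up 45% to 54% of counts in rat and 50.8% to 53.4% in mouse, as the tissue label has it. Rat library r1 stood apart from r2 and r4, with a Pearson r of 0.986 and 0.988 against them on log2 CPM over all rat names, where r2 and r4 had 0.999. CPM is the count of a name relative to all counts of its library. Lens and cornea markers (2 of 4 listed names in each table, none at 0) were 0.937% of counts in r1, 0.177% in r2 and 0.114% in r4, and 0.0311% to 0.125% in mouse. Other lists differed between the species without overlap, with no name at 0. The names listed for retinal pigment epithelium, miR-204-5p and miR-211-5p (2 of 2 names in each table), were 2.45% to 3.08% of counts in rat. In mouse they were 1.38% to 1.61%, and whether these reads came from that cell layer was not tested. Vascular markers (4 of 7 names in each table) were 0.757% to 0.8% in rat and 0.422% to 0.504% in mouse. Muscle markers (4 of 5 names in the rat table, 3 of 5 in the mouse table) were 0.0331% to 0.042% in rat and 0.0642% to 0.0883% in mouse. The part of these cell types in the values of the members was not tested.

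The passenger miR-185-3p was listed at 0 counts in rat libraries r1, r2 and r4, against 253, 339 and 292 counts in mouse libraries m1, m3 and m4. Its guide miR-185-5p had 12313, 20779 and 19366 counts in the rat libraries and 13871, 15769 and 16539 in the mouse libraries. The guide was thus read to a like depth in both species, while the groups did not overlap in the passenger. In human, this hairpin lies in the chromosome region deleted in DiGeorge syndrome.

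Passenger reads of miR-185 were 0 of 52458 reads of the hairpin in rat, which allows a share of up to 0.00572% when 0 is read as up to 3 counts. In mouse they were 884 of 47063, or 1.88% (exact binomial 95% interval 1.76% to 2.01%). The mean over libraries was 1.88% ± 0.199 (SD, n = 3) in mouse. At the mouse share, the rat libraries would have held 985 passenger reads. With the mouse share as measured and the floor of 3 counts over the rat group, the share was 328-fold lower in rat. At the lower end of the mouse interval and the same floor, it was 307-fold lower. The exact binomial 95% upper bound of the rat share, 0.00703%, lies above this floor and would give smaller folds. These limits cover counting error only, since PCR copies are not independent molecules. Among the 281 shared names with at least 100 counts in every mouse library, 1 was at 0 in all 3 rat libraries, and it was miR-185-3p. The opposite case, at least 100 counts in every rat library and 0 in all mouse libraries, also had 1 name among 264. With a minimum of 250 counts, it was 1 name among 245 in the first direction and 0 among 221 in the other. That minimum lies just under the lowest mouse count of miR-185-3p, 253 in m1. With a minimum of 10 counts, it was 2 names among 380 in the first direction and 2 among 368 in the other. The hairpin was chosen for its rat passenger, so nothing is read from these counts.

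**Figure D1:**
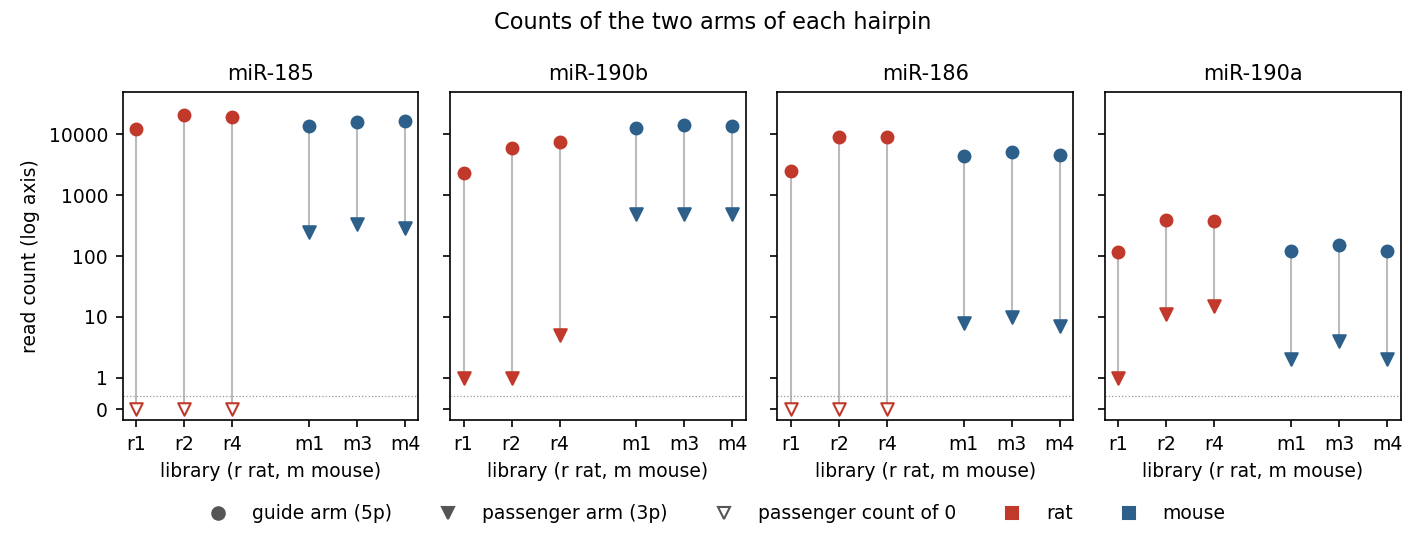
Read counts (log axis, with 0 drawn as an open triangle below the dotted line) of the guide arm (circles) and the passenger arm (triangles) of each hairpin in 3 rat and 3 mouse libraries. The passenger of miR-185 was at 0 in every rat library and at 253 to 339 in mouse, while the miR-190a pair kept a like distance in both species.

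The passenger miR-190b-3p had 1, 1 and 5 counts in r1, r2 and r4, against 497, 499 and 483 counts in m1, m3 and m4. The guide miR-190b-5p had 2302, 6017 and 7386 counts in the rat libraries and 12653, 14218 and 14006 in the mouse libraries. Both arms were lower in every rat library than in every mouse library, but the passenger by far more. Passenger reads were 0.0434%, 0.0166% and 0.0676% of the hairpin's reads in r1, r2 and r4, against 3.78%, 3.39% and 3.33% in m1, m3 and m4.

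The passenger share of miR-190b was 0.0426% ± 0.0255 (SD, n = 3) in rat and 3.5% ± 0.243 (SD, n = 3) in mouse. Pooled over libraries, it was 7 of 15712 reads in rat, or 0.0446% (exact 95% interval 0.0179% to 0.0918%), and 1479 of 42356 in mouse, or 3.49% (3.32% to 3.67%). The mouse share was 78.4 times the rat share, with an exact 95% counting interval of 37.9 to 195. Among hairpins with at least 50 counts in every library, 98 of 169 had a lower mouse share than miR-190b, and 20 had a lower rat share.

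The passenger miR-186-3p was at 0 counts in r1, r2 and r4, against 8, 10 and 7 counts in m1, m3 and m4. The guide miR-186-5p had 2552, 9104 and 9179 counts in the rat libraries and 4378, 5169 and 4596 in the mouse libraries. The passenger was already rare in mouse, and the groups did not overlap. Its share was 0 of 20835 reads in rat, which allows up to 0.0144%, and 25 of 14168 in mouse, or 0.176% (exact 95% interval 0.114% to 0.26%). With the mouse share as measured and the floor of 3 counts over the rat group, the share was 12.3-fold lower in rat. At the lower end of the mouse interval and the same floor, it was 7.93-fold lower. The exact 95% upper bound of the rat share, 0.0177%, lies above this floor and would give smaller folds. In r1 alone the depth was too low to set a tight limit, since 0 of 2552 reads allows up to 0.118%. This value and the exact 95% upper bound in r1, 0.144%, lie above the lower interval bound of 0.114% in mouse. The limits of r1 and mouse thus overlap, and that overlap does not decide whether the share was lower in r1.

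The miR-190a hairpin did not follow the others. Its passenger miR-190a-3p had 1, 11 and 15 counts in r1, r2 and r4, against 2, 4 and 2 counts in m1, m3 and m4, and its guide miR-190a-5p had 117, 385 and 383 counts in rat, against 120, 153 and 122 in mouse. The passenger counts of the species overlapped. The passenger share was 2.46% ± 1.49 (SD, n = 3) in rat and 1.93% ± 0.532 (SD, n = 3) in mouse, a difference smaller than the spread between libraries. The pooled mouse share was 0.671 times the rat share, with an exact 95% interval of 0.263 to 1.52 that covers counting error only. The low counts of this hairpin limit the precision of its share. Without r1 the rat share of miR-190a was 3.27% ± 0.701 (SD, n = 2).

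Over all hairpins, large differences in arm balance between the species were few. The ratio was computed as log2((guide + 0.5)/(passenger + 0.5)) for the 169 hairpins with at least 50 counts of both arms together in every library. The median difference, rat minus mouse, was -0.08, with quartiles of -0.64 and 0.55. The median passenger share was 2.11% in rat and 2% in mouse. The 3 hairpins chosen for their rat passenger, miR-185, miR-190b and miR-186, held ranks 1, 2 and 3 of 169 in this difference, at 9.35, 6.20 and 4.47, and miR-190a held rank 87 at -0.10. Where a passenger is at 0 this value depends on the added 0.5: with 1 added in its place, the differences of miR-185, miR-190b and miR-186 were 8.35, 5.88 and 3.56, at the same ranks. Differences above 4 were found for 3 hairpins with 0.5 added and for 2 with 1 added, and differences below -4 for 3 hairpins with either. With 0.5 added, those below -4 were miR-344b at -12.16, miR-381 at -6.38 and miR-298 at -5.80. The ranks order a rise in rat only, and the largest difference of either sign was that of miR-344b. Because miR-185, miR-190b and miR-186 were chosen on this contrast, nothing is read from their ranks, with either pseudocount.

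The libraries of the species did not overlap in passenger share, lower in rat, for 3 of the 4 hairpins, where this was so for 20.1% of the 169 hairpins. Since the hairpins were chosen on this contrast, nothing is read from that count. Of all 169 hairpins, 8 had no passenger read in any rat library and 11 had none in any mouse library, so zero passengers as such were not more frequent in the rat table. Among 124 hairpins with at least 10 passenger reads in every mouse library, 8 had a mean rat passenger share under 0.1%, miR-185 and miR-190b among them. That number sets no condition on the mouse share, so it does not count hairpins with a lower share in rat.

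**Figure D2:**
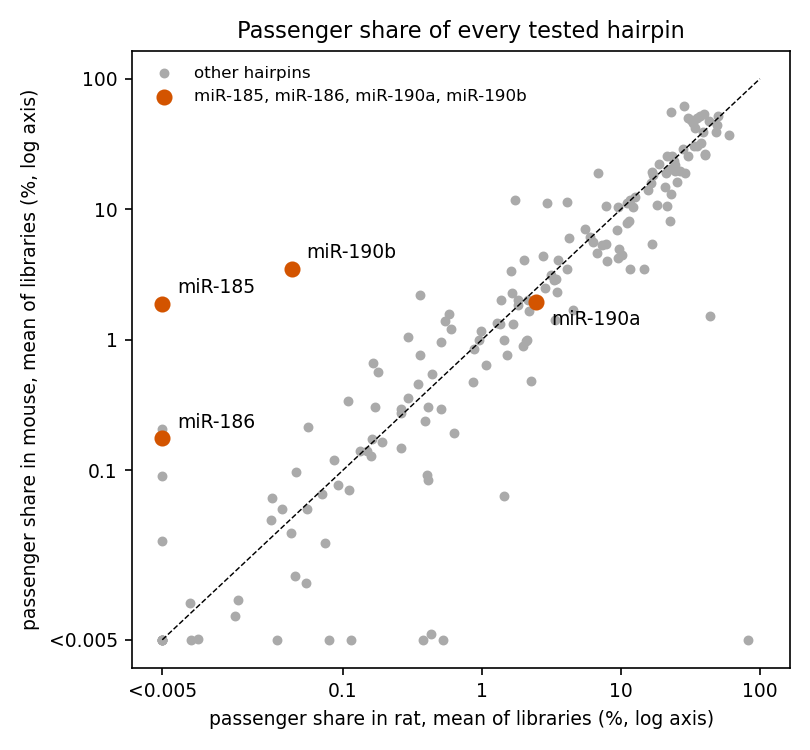
Mean passenger share over 3 rat libraries (horizontal, %, log axis) and 3 mouse libraries (vertical, %, log axis) for 169 hairpins, with shares under 0.005% drawn at the edge and a dashed line where the species are equal. The points of miR-185, miR-190b and miR-186 lie far to the left of the line, and miR-190a lies near it. In rat, miR-185 and miR-186 were at 0 and are drawn at the edge, where their depth allows up to 0.00572% and 0.0144%.

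The hairpins next in order, chosen by the same ratio, had smaller differences, and some of them also had few passenger reads in rat. For miR-1843b the difference was 2.92, with 64, 135 and 112 passenger counts in r1, r2 and r4 and 1240, 1563 and 1412 in m1, m3 and m4. Its passenger share was 1.73% ± 0.353 in rat and 11.7% ± 0.6 in mouse (SD, n = 3 each). The next were miR-542 at 2.46, miR-466c at 2.09, miR-673 at 2.08 and miR-224 at 2.04. The passenger of miR-542 had 0, 1 and 3 counts in r1, r2 and r4 and 5, 9 and 8 in m1, m3 and m4. The passenger of miR-224 had 3, 0 and 4 counts in the rat libraries and 2, 0 and 0 in the mouse libraries, so it was near 0 in both species. Of the hairpins named, miR-466c and miR-673 had a passenger share above 50% in mouse, at 62.4% ± 8.9 and 55.4% ± 5.67 (SD, n = 3 each), so that there the more abundant arm differed between the species. At the edge of the choice, miR-186 was at 4.47 and miR-1843b at 2.92 with 0.5 added, and at 3.56 and 2.91 with 1 added.

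Guide levels are given as scaled CPM, the count of a name relative to the counts of all names shared by both tables, after TMM scaling between libraries. Each read is counted once whatever its length, so levels of different miRNAs can be set side by side without a length correction. PCR copying and how well each sequence enters a library still affect them. On this scale miR-185-5p was at 992, 917 and 770 in r1, r2 and r4, against 803, 813 and 840 in m1, m3 and m4. The groups overlapped, with means of 893 ± 113 in rat and 819 ± 18.8 in mouse (SD, n = 3 each) and a log2 difference, rat over mouse, of 0.13 ± 0.15 (SE). It ranked 63 of 542 shared names in rat and 66 in mouse. The passenger miR-185-3p was at 14.7, 17.5 and 14.8 in m1, m3 and m4. Set at the rat group's floor of 3 counts, which is 0.0498 scaled CPM, it would be 315-fold lower in rat. That fold follows from the floor and is not a measured value.

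The guide miR-190b-5p was at 185.5, 265.6 and 293.5 scaled CPM in r1, r2 and r4, against 733, 733 and 711 in m1, m3 and m4. All rat libraries lay below all mouse libraries, with a mean of 248 ± 56.1 in rat and 726 ± 12.7 in mouse (SD, n = 3 each), a log2 difference of -1.55 ± 0.19 (SE). Its passenger was at 0.108 ± 0.0808 in rat and 26.3 ± 2.19 in mouse (SD, n = 3 each), a log2 difference of -7.76 ± 0.36 (SE). The guide of this hairpin was thus 2.92-fold lower in rat, where the passenger was 244-fold lower by the same means.

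The guide miR-190a-5p, the seed relative, differed the other way. It was at 9.43, 17 and 15.2 scaled CPM in r1, r2 and r4, against 6.95, 7.89 and 6.19 in m1, m3 and m4, with no overlap (log2 difference 0.99 ± 0.25, SE). Each rat library held 15.6 to 19.7 miR-190b-5p reads per miR-190a-5p read, and each mouse library 92.9 to 115. The means were 18.2 ± 2.26 in rat and 104 ± 11.1 in mouse (SD, n = 3 each). Together the guides with the seed GAUAUGU came to 262 ± 59.7 scaled CPM in rat and 733 ± 13.6 in mouse (SD, n = 3 each). The order of the copies was the same in both species, with miR-190b-5p ahead. In mouse neurons, miR-190 has been reported to lower the transcription factor NeuroD1.

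The guide miR-186-5p was at 206, 402 and 365 scaled CPM in r1, r2 and r4, against 254, 267 and 233 in m1, m3 and m4. Library r1 lay below every mouse library and r2 and r4 above every one, so the groups overlapped (log2 difference 0.37 ± 0.24, SE). Compared with the mean of r2 and r4, r1 held 0.537 times the miR-186-5p, 0.585 times the miR-190a-5p and 0.664 times the miR-190b-5p, but 1.18 times the miR-185-5p. Without r1 the rat means were 843 for miR-185-5p, 383 for miR-186-5p, 280 for miR-190b-5p and 16.1 for miR-190a-5p. Each rat library, r1 included, held 0 reads of miR-185-3p and miR-186-3p and at most 5 of miR-190b-3p.

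In rat, the order of guide levels was miR-185-5p, miR-186-5p, miR-190b-5p and miR-190a-5p by their means and within each library. The ranges of miR-186-5p (324 ± 104, SD, n = 3) and miR-190b-5p overlapped across libraries, but miR-186-5p was the higher in 3 of 3. In mouse the order was miR-185-5p, miR-190b-5p, miR-186-5p (251 ± 16.8, SD, n = 3) and miR-190a-5p, and no neighbours overlapped.

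**Figure D3:**
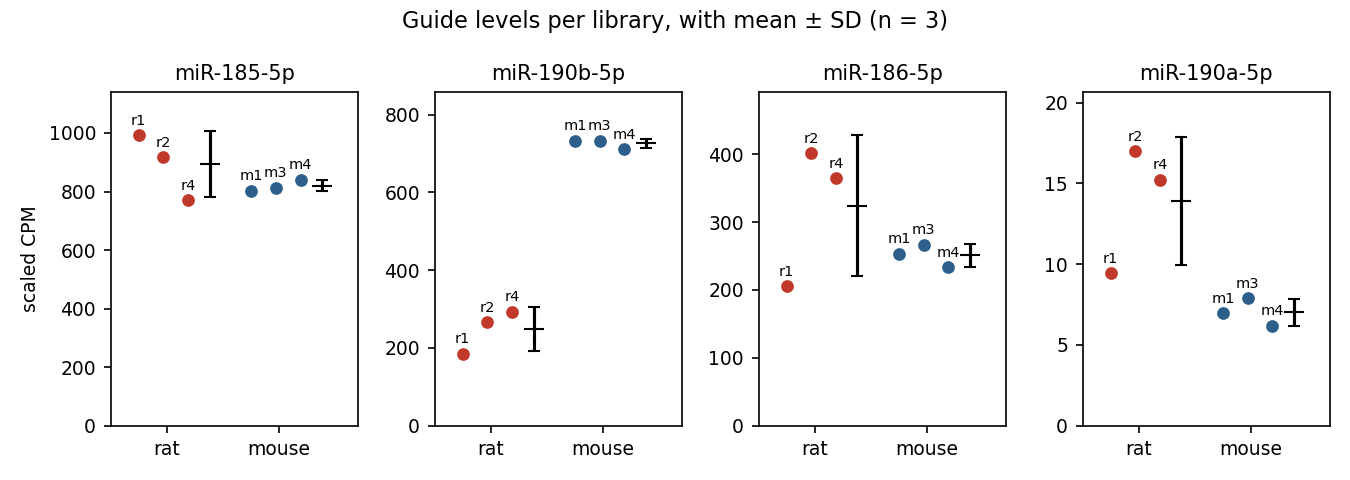
Levels of the 4 guides in scaled CPM (linear axis from 0, a separate axis per guide) in each rat and mouse library, with the mean and SD (n = 3) beside the points. The rat libraries lie below the mouse libraries for miR-190b-5p and above them for miR-190a-5p, and they overlap for miR-185-5p and miR-186-5p.

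Of the 8 names, 5 had rat libraries that did not overlap the mouse libraries in scaled CPM, where this was so for 50.4% of all 542 shared names. The names were miR-185-3p, miR-186-3p, miR-190b-3p and miR-190b-5p, lower in rat, and miR-190a-5p, higher in rat. In the fit across names, 6 of the 8 passed the filter on low counts, and miR-186-3p and miR-190a-3p did not. Over the 398 names that passed, 199 (50%) differed at a Benjamini-Hochberg adjusted p under 0.05 in edgeR's quasi-likelihood test. Over the 169 hairpins, 41 (24.3%) did so in limma's test of the arm ratio.

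Names whose levels over the 6 libraries were most like each guide were taken from 225 names of other numbers with at least 10 scaled CPM in every library, by Pearson r on log2(CPM + 1). The libraries fall into 2 species, so r mostly follows the difference between them and the place of r1, and it is given as a description. For miR-190b-5p these were miR-124-3p, the pan-neuronal miRNA, at r = 0.987, miR-484 at 0.986 and miR-199a-3p at 0.985. For miR-190a-5p they were miR-384-5p and miR-532-3p, both at 0.994, and miR-379-3p at 0.983. For miR-186-5p they were miR-140-5p, miR-434-3p and miR-29c-3p, each at 0.979. For miR-185-5p they were miR-30c-1-3p at 0.937, miR-383-5p at 0.909 and miR-204-3p at 0.895, and miR-30c-1-3p is itself a 3p-arm product, at 48.3 ± 4.97 scaled CPM in rat and 43.2 ± 1.08 in mouse (SD, n = 3 each). The 3 names for miR-190a-5p and the 3 for miR-190b-5p had none in common.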

How the data were processed

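The values are read counts for each mature miRNA name, deposited by the authors without normalization in 1 table per species. Per the labels' protocols, RNA was isolated from dissected retinas with a miRNeasy mini kit and sequenced as single-end reads on a HiSeq-2500. How reads were trimmed, aligned and assigned to names, and from which miRNA release, is not given in the sources used here. The columns carry library numbers that differ from those of the labels, so each was assigned to its species only.

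The members and lists were chosen with earlier results of these data known. Names were joined after removal of the species prefix (542 shared). Levels were scaled with TMM factors in edgeR 4.0.16 (R 4.3.3) from the totals of shared names. Its quasi-likelihood test was run over the 398 names left by filterByExpr. The SE of a log2 level difference was derived as its absolute value divided by the square root of that test's F statistic. The arm ratio was tested over 169 hairpins with limma 3.58.1. Members got values and no p. Rules for named miRNAs took all names of the 3 numbers, seed relatives of guides, the 5 hairpins next in the arm ratio and 3 names per guide by correlation. On simulated counts for abundance (398 names, 200 changed), 85.2% of 2-fold and 98.2% of 4-fold changes were recovered. For the arm ratio (169 hairpins, 80 changed) it was 17% and 63.7%. Libraries of a species differed from each other beyond sampling noise (chi-square per degree of freedom of at least 65.6). Alternatives were DESeq2 1.42.0, library totals, no filter, another pseudocount or minimum, and leaving out each library.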

Additional observations from a re-analysis of the deposited data

How the results depend on the processing

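Leaving out 1 library left between 153 and 293 names called in abundance, against 199, and between 26 and 63 hairpins called in the arm ratio, against 41, with 63 without r1, 27 without m1 and 26 without m3. Scaling by library totals alone called 170 names, 74.7% of them higher in rat, against 51.3%, and moved the median log2 difference of all names to 0.43, against 0.08. There miR-185-5p was at 0.44, the level of that median, and miR-190b-5p at -1.15. With a pseudocount of 1 the arm differences were 8.35 for miR-185, 5.88 for miR-190b and 3.56 for miR-186, since a passenger at or near 0 in rat takes its value from the pseudocount. Over the libraries left out in turn, the arm difference was 9.2 to 9.58 for miR-185, 5.7 to 6.49 for miR-190b, 4.16 to 5.09 for miR-186 and -0.58 to 0.25 for miR-190a, whose sign was not fixed. The log2 level difference was 0.04 to 0.23 for miR-185-5p, 0.2 to 0.61 for miR-186-5p, 0.84 to 1.2 for miR-190a-5p, -1.67 to -1.38 for miR-190b-5p and -8.67 to -7.32 for miR-190b-3p. The mean passenger share ranged over 0.03% to 0.0555% in rat and 3.36% to 3.59% in mouse for miR-190b, 1.81% to 3.27% and 1.63% to 2.09% for miR-190a, and 1.76% to 1.95% and 0.167% to 0.188% in mouse for miR-185 and miR-186, which stayed at 0 in rat. DESeq2 and no filter kept each level difference of a member within 1 SD between libraries. No paired analysis was possible because the columns do not carry the replicate numbers of the labels. Rat and mouse libraries came from different animals, so a shared replicate number would not by itself make them a pair. Depth limits miR-190a, whose passenger had at most 15 counts in a library.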
